A study of Mus musculus with 8 samples.

Results

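The cytosolic ribosomal protein genes, which encode the proteins of the large and small subunits of the cytoplasmic ribosome, were taken from the deposited expression table by symbol: Rpl or Rps followed by a number, together with Rpsa, Rplp0, Rplp1 and Rplp2. Symbols of the ribosomal S6 kinases, of the Rps19 binding protein and those containing -ps were left out. The symbol rule is not the same as the annotation: the members Rpl37rt, Rps12l1 and Rps4l are annotated as processed pseudogenes, and Rpl10-ps3, Rpl36a-ps1 and Rpl9-ps6, left out by their names, as protein coding. The rule found 86 of the 11756 genes listed, 51 of the large subunit and 35 of the small subunit. Marrow was taken from the leg bones of C57BL/6 mice, CD11c+ cells were isolated from it by flow sorting, and on culture day 6 they were loaded for 24 h with acLDL, or handled as controls. CD11c, the product of Itgax, marks dendritic cells and part of the macrophages. AcLDL is low-density lipoprotein modified so that scavenger receptors take it up, and the series used it to mimic an atherosclerotic setting. The design gave 4 libraries with acLDL and 4 without, and the labels do not say whether these came from separate animals or cultures, so that p-values measure only the spread between libraries.

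Ribosomal proteins assemble with the ribosomal RNAs in the nucleolus into a large subunit, which forms peptide bonds, and a small subunit, which reads the message. Their messages are short, abundant and long-lived, and most begin with a pyrimidine-rich tract, the TOP motif, through which mTOR and Larp1 control their translation as a group. A ribosome holds nearly all of them in equal numbers, so that their messages are usually followed together.

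The TOP tract lies at the start of the message, and the start sequences of 8 members are shown because these members lay at opposite ends of the difference between the groups. RefSeq start sequences (GRCm38.p6) were found for 64 members. The letters CTTTC, the core of a TOP-like tract, occurred on the gene's own strand between 15 bases before and 15 bases after an annotated start in 18 of these 64 members (28.1%), against 4.76% of 27025 genes. On either strand the shares were 31.2% and 8.83%. The longer form CTCTTTC, which contains CTTTC, lay on the gene's own strand in 6 members (9.38%) and in 0.488% of all genes. The 30-base windows below run 5′ to 3′ on the gene's strand, with the first match of CTTTC in capitals. The first 4 belong to the members with the match whose log2 fold changes were the most negative, and the last 4 to those with the most positive, the retrogene Rps23rg1 left aside. They were chosen after the values were seen.
Rps26, chr10:128626492-128626521, minus strand: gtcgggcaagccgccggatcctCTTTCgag
Rpl7a, chr2:26910792-26910821, plus strand: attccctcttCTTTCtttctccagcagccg
Rpl18, chr7:45718056-45718085, plus strand: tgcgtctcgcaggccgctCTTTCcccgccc
Rpl35, chr2:39005117-39005146, minus strand: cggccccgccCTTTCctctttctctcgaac
Rpl15, chr14:18270972-18271001, minus strand: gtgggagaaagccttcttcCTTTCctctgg
Rplp2, chr7:141447636-141447665, plus strand: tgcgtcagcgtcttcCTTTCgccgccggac
Rpl13a, chr7:45128731-45128760, minus strand: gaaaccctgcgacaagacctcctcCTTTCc
Rpl27a, chr7:109519180-109519209, plus strand: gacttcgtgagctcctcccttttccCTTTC
Their log2 fold changes were -3.64 (Rps26), -3.56 (Rpl7a), -3.50 (Rpl18) and -3.39 (Rpl35), and 0.63 (Rpl15), 0.65 (Rplp2), 0.79 (Rpl13a) and 0.85 (Rpl27a). All 8 were picked for carrying the letters, so a match at both ends of the range was fixed by the choice. In Rpl7a and Rpl35 the capitals lie in the 15 bases before the annotated start, outside the annotated message. In the others they lie in the 15 bases after it. Later matches are not in capitals. In Rpl35 the bases after the start open with an unmarked CTCTTTC, the longer form. In Rpl7a a further, overlapping CTTTC runs across the start, beginning at the last base before it.

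The table holds normalized values with library totals between 3917426 and 4385051, so the original read depth is not known from it, and no value lay between 0 and 5. The libraries were made with a kit that primes at the poly(A) tail, although the series' design text speaks of quantification from the other end of the message. Of the 86 members, 85 passed a filter of at least 10 in at least 4 libraries. Rpl24 did not, with 0, 30.6, 14.2 and 0 in acLDL libraries 1 to 4 and 107, 0, 6.63 and 0 in control libraries 1 to 4. The CD11c+ cell label was checked against 8 markers, all listed, whose summed value was 8516 to 12740 with acLDL and 9568 to 11017 in controls, and 5 of the 7 that passed the filter had lower means with acLDL. Much of the sum was Csf1r, at 9634 of 10972 in acLDL library 3. Csf1r (4087, 8639, 9634 and 5872 with acLDL, 5577, 3838, 3929 and 3899 in controls) and Mertk had the higher means. Itgax stood at 189, 10, 0 and 42.7 with acLDL and 81.5, 182, 195 and 172 in controls. Adgre1 was listed at 0 in acLDL libraries 2 and 3, Zbtb46 in acLDL libraries 3 and 4, and Flt3 in acLDL libraries 3 and 4 and control library 1. Granulocyte markers (6 of 7 analysed) summed to 472 to 10803 with acLDL and 5088 to 12699 in controls. Of the erythroid markers only Hbb-bs was analysed (54.1 to 190 with acLDL, 164 to 1429 in controls), and the 2 lymphocyte markers analysed, Cd79a and Ms4a1, summed to at most 76.8 in any library.

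With acLDL the ribosomal protein genes split into a set with lower and a set with higher mean values, and the acLDL libraries differed among themselves. Of the 85 tested members, 51 had a lower mean log2 value with acLDL (60.0%, against 55.7% of all 10091 genes tested) and 34 a higher one (against 44.3%). The members with lower means differed by much more, with a median log2 fold change of -2.21 (acLDL minus control, on log2 of the value plus 5), than those with higher means, whose median was 0.43. Among all genes tested those medians were -0.76 and 0.42. The whole range ran from -3.79 for Rps2 to 1.09 for Rps20, and 28 members lay below -2, against 604 of all genes tested. The median over the 85 members was -0.88, beside -0.13 over all genes tested. Under quantile normalization, which moved the median of all genes tested to 0.15, the members' median was -0.78, 55 members were lower and 30 higher, and 42.7% of all genes were lower.

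No member passed an adjusted p of 0.05 in limma's moderated test (Benjamini-Hochberg over all genes tested, two-sided), and neither did any other gene (0% called, smallest adjusted p 0.298). At an unadjusted p under 0.05 there were 21 members, against 16.4% of all genes tested. Of these, 5 were lower (background 8.93%) and 16 higher (background 7.42%). With a pseudocount of 1 and of 20, 1 (background 7.88%) and 12 (background 9.32%) were lower, and 16 were higher with either. The balance also turned with the libraries used. Without acLDL library 1, 63 members had an unadjusted p under 0.05 (39.6% of all genes tested), 45 of them lower (25.3%) and 18 higher (14.2%). Without acLDL library 2, acLDL library 3, control library 2 or control library 4 there were 8, 9, 8 and 7 such members. Of all genes 6.95%, 7.46%, 8.23% and 9.04% passed, so that these counts over both directions lay near the background. By direction, 1 member was lower in each setting (3.58%, 4.3%, 3.92% and 4.44% of all genes). The higher members numbered 7, 8, 7 and 6 (3.37%, 3.16%, 4.3% and 4.6% of all genes). In bulk libraries fewer cells of a type and less RNA per cell cannot be told apart.

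The 4 acLDL libraries did not resemble each other over these genes. Taking for each member its log2 deviation from its own mean over the 8 libraries, the average over the 85 members was 0.92, -0.96, -2.03 and -0.06 in acLDL libraries 1 to 4 and 0.18, 0.66, 0.87 and 0.42 in control libraries 1 to 4. The means were -0.53 ± 1.26 with acLDL and 0.53 ± 0.30 in controls (SD, n = 4), so the acLDL libraries spanned the whole control range. Library 1 was above every control library and libraries 2 and 3 were far below. The mean deviation of the granulocyte markers had the same order (1.13, -1.67, -2.63 and -0.33 with acLDL), as did that of the CD11c+ cell markers (0.96, -1.03, -1.88 and -0.41). Single markers did not all follow. With acLDL the CD11c+ cell markers Csf1r and Mertk stood at 4087, 8639, 9634 and 5872 and at 655, 1503, 1056 and 747. The granulocyte marker Ltf stood at 149.9, 212, 224 and 144. The part of either set in the members' values was not tested. Against this uneven background, acLDL libraries 2 to 4 were all below every control library in 38 members (18.9% of all genes tested) and all above every control library in 20 members (14% of all genes tested). The map of every member by library shows both sets.

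**Figure D1:**
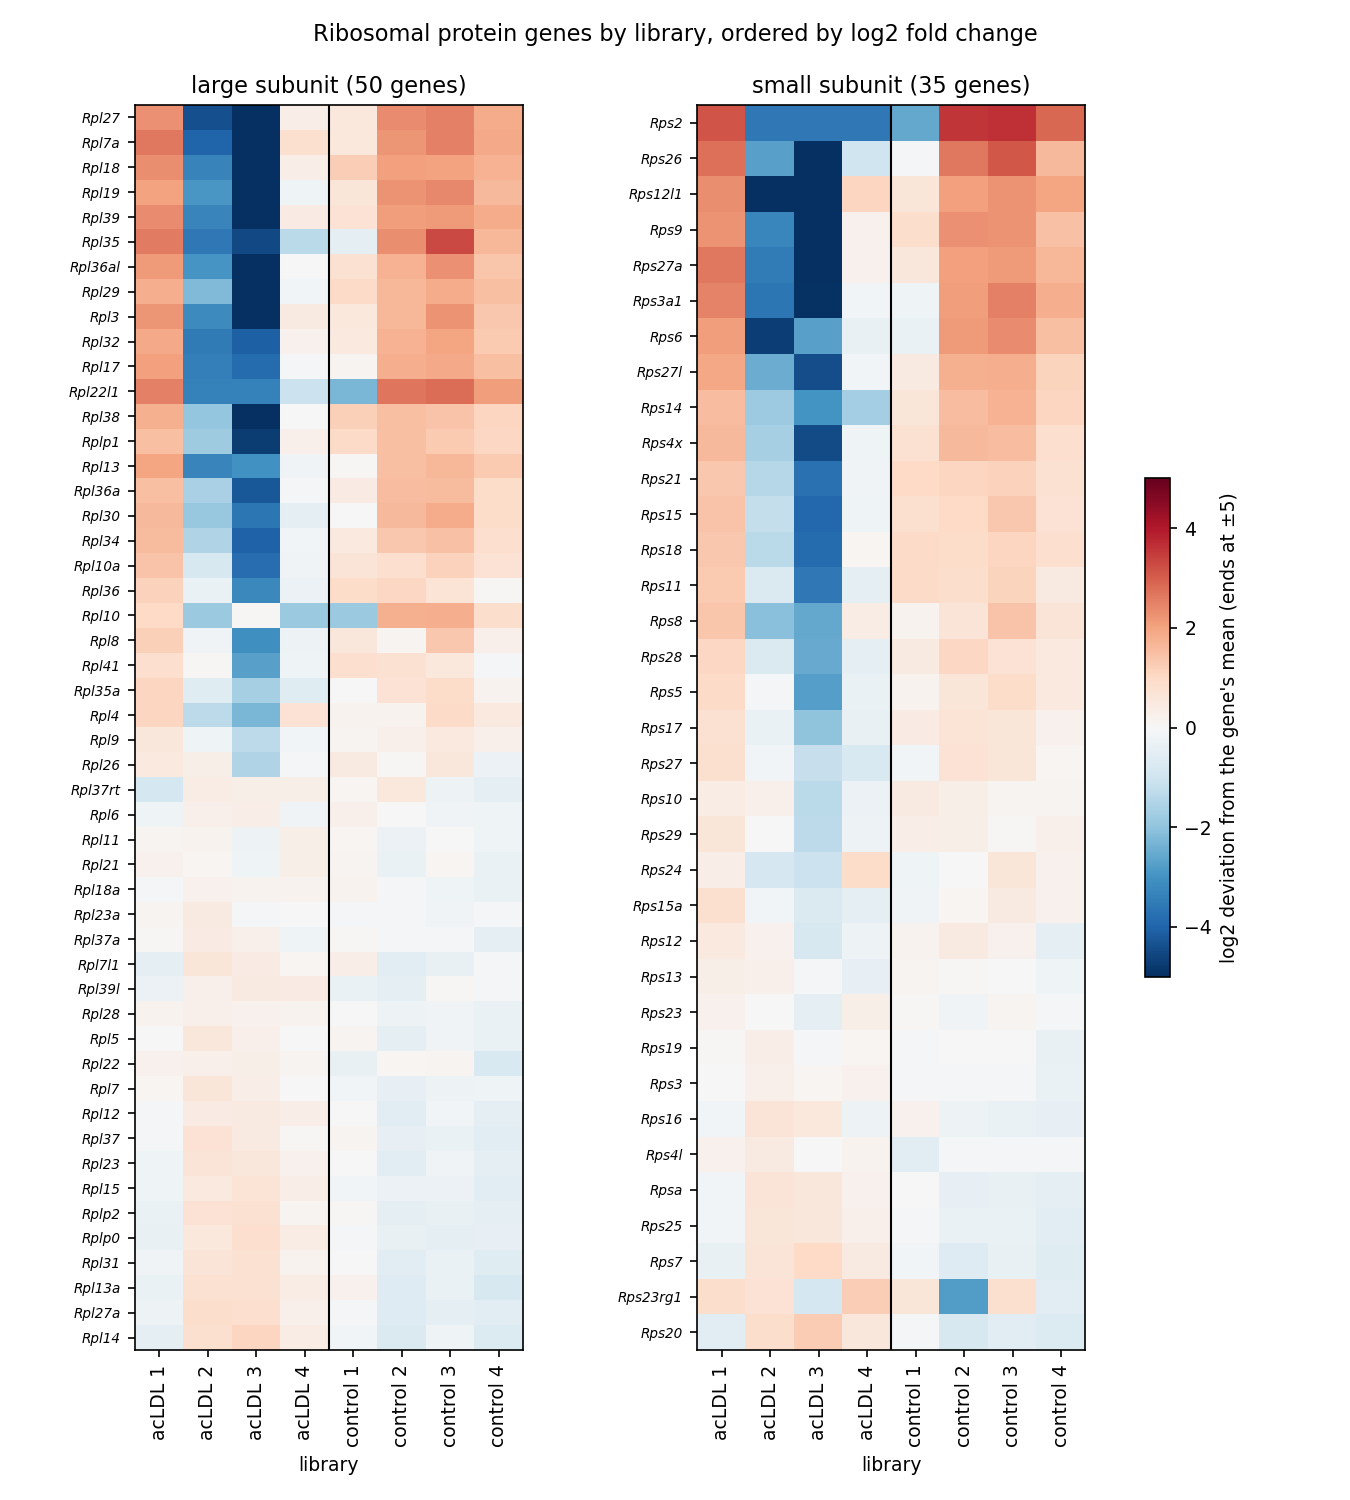
Each row is a tested ribosomal protein gene, each column a library, and the colour is the log2 deviation of the gene from its mean over the 8 libraries, with colours ending at -5 and 5; genes are ordered by log2 fold change within the large (50) and small (35) subunit. Most deep blue cells lie in acLDL libraries 2 and 3, library 1 is red in the same genes, and most genes toward the bottom vary little.

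Leaving out acLDL library 1 changed the calls. With the other 3 acLDL libraries against the 4 controls, limma called 49 of 85 members at an adjusted p under 0.05, where 21.7% of all genes tested were called. Of these, 35 fell (background 14.4%) and 14 rose (background 7.28%). They comprised 28 of the 50 large subunit members and 21 of the 35 small subunit members. The median over all members was then -1.37. No member was called when any other single library was left out. Leaving out acLDL library 3 instead gave a median of -0.30, and leaving out libraries 2 and 3 together gave -0.11 with no member called. With limma's array weights, which keep every library but weigh it by its estimated reliability, 28 members were called (19.4% of all genes tested), 13 lower (background 12.9%) and 15 higher (background 6.49%). The lowest weight, 0.34, fell on acLDL library 1, and the highest was 2.81. Here and below, results with array weights are therefore not separate from those without that library.

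Large and small subunit genes ranked the acLDL libraries in the same order. Of the 50 large subunit members tested, 27 were lower and 23 higher, with a median log2 fold change of -0.72, and of the 35 small subunit members 24 were lower and 11 higher, with a median of -0.96. Without acLDL library 3 these medians were -0.24 and -0.36. The large subunit median turned to 0.19 when a value of 10 was asked for in all libraries, which kept 41 of the genes. Mean deviations of the large subunit genes were 0.84, -0.92, -1.94 and 0.01 with acLDL and 0.18, 0.63, 0.82 and 0.38 in controls. For the small subunit genes they were 1.03, -1.02, -2.15 and -0.15 with acLDL and 0.17, 0.71, 0.93 and 0.47 in controls. The large minus small difference was -0.19, 0.10, 0.21 and 0.16 in the acLDL libraries and 0.01, -0.07, -0.11 and -0.10 in the controls, a difference of 0.14 between group means of 0.07 ± 0.18 and -0.07 ± 0.05 (SD, n = 4). The groups overlapped, since acLDL library 1 lay below every control library. Each library's mean deviation over other coding genes was also entered in the fit, either over those with a transcript under 1000 nt (short-transcript covariate) or over those with a 3′ UTR under 200 nt (short 3′ UTR covariate, added after the values were seen), and the large minus small difference was then -0.01 and -0.02. The large subunit median then turned to 0.14 and 0.18 and the small subunit median to 0.09 and 0.19. Both covariates were themselves lower on average with acLDL, so entering them also takes out part of the group difference. Here and below, values near 0 with a covariate are given without a reading as to cause, which was not tested.

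**Figure D2:**
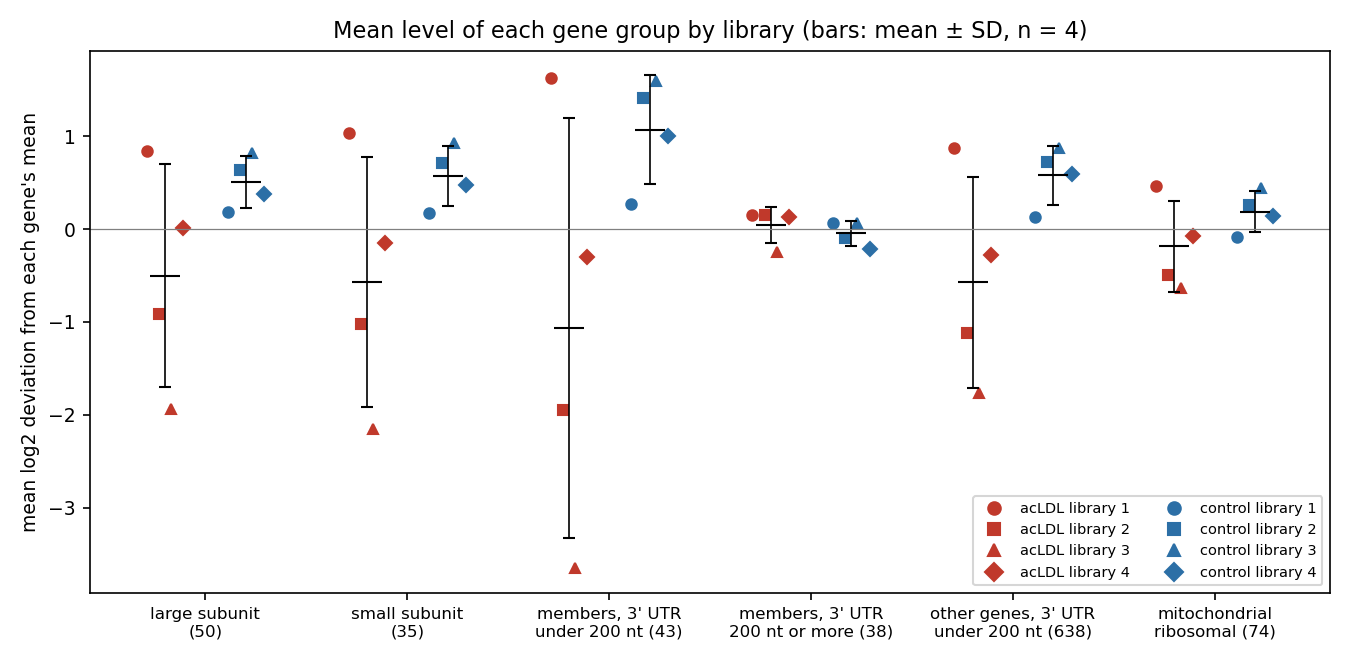
Mean log2 deviation from each gene's mean (vertical axis) by library for 6 gene groups, with the number of genes in brackets; red is acLDL, blue is control, symbols are libraries 1 to 4, and black bars are the mean ± SD over 4 libraries. Members with a 3′ UTR under 200 nt spread from -3.65 to 1.63 across the acLDL libraries, and members with a longer one stay between -0.25 and 0.15.

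The stalk proteins showed how members of one structure parted. Rplp0 (chr5:115559467-115563727, plus strand, GRCm38), Rplp1 and Rplp2 form the stalk of the large subunit, which recruits the elongation factors. Rplp0 stood at 11673, 22193, 26877 and 19537 in acLDL libraries 1 to 4 and at 14514, 11757, 10748 and 11417 in control libraries 1 to 4. Its log2 fold change was 0.67 (SE 0.26, limma adjusted p = 0.298), and acLDL libraries 2 to 4 were above every control. Rplp2 stood at 6756, 14119, 14628 and 9562 with acLDL and at 8914, 6048, 6595 and 6208 in controls (log2 fold change 0.65, SE 0.27). Rplp1 went the other way, with 6945, 709.9, 85.1 and 2880 against 4785, 6868, 5998 and 5066 (log2 fold change -2.40, SE 1.14). For Rplp1 acLDL library 1 was the highest of all 8 libraries and acLDL library 3 the lowest. Without acLDL library 1, the limma adjusted p was 0.0238 for Rplp0 (log2 fold change 0.91), 0.0298 for Rplp2 (0.87) and 0.0431 for Rplp1 (-3.30). With array weights over all libraries it was 0.0308 for Rplp0, 0.0399 for Rplp2 and 0.0884 for Rplp1. With the short 3′ UTR covariate the log2 fold change of Rplp1 was 0.09.

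Among the other large subunit genes, the lowest p-values among those with a lower mean belonged to Rpl19, Rpl35, Rpl29 and Rpl27. Rpl35 (chr2:39001580-39005624, minus strand), a protein beside the exit of the peptide tunnel, stood at 3408, 42.1, 19.7 and 215 with acLDL and at 388, 2762, 5475 and 1777 in controls. The fitted log2 difference was -3.39 (SE 1.47, limma adjusted p = 0.298). Rpl27 (chr11:101442298-101445529, plus strand) stood at 1139, 6.18, 0 and 291 with acLDL and at 327, 1195, 1312 and 846 in controls (-3.63, SE 1.59). In both genes acLDL libraries 2 to 4 were below every control and acLDL library 1 was inside the control range. Rpl19 (-3.43, SE 1.42) and Rpl29 (-3, SE 1.30) had the same order. Without acLDL library 1 the limma adjusted p was 0.0298 for Rpl19, 0.0246 for Rpl35, and 0.0326 for Rpl29 and Rpl27. With array weights over all libraries it was 0.0439 for Rpl19, 0.0323 for Rpl35, 0.0509 for Rpl29 and 0.0617 for Rpl27. The log2 fold change of Rpl27 was 0.01 with the short 3′ UTR covariate.

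The large subunit genes with a higher mean and the smallest p-values were Rpl27a, Rpl12, Rpl15 and Rpl28. Rpl27a (chr7:109519147-109522367, plus strand) stood at 11620, 25469, 24944 and 16731 with acLDL and at 13020, 9008, 10230 and 9820 in controls. The fitted log2 difference was 0.85 (SE 0.27, limma adjusted p = 0.298). Rpl12, at the base of the stalk, had means of 8593 ± 1369 with acLDL and 5813 ± 1043 in controls (SD, n = 4), and Rpl15 had 8382 ± 2103 and 5301 ± 669. In these 3 genes acLDL library 1 lay within the control range and the other acLDL libraries above it. Rpl28 was steadier: 5553, 5836, 5804 and 5530 with acLDL against 4858, 4089, 4348 and 3909 in controls, with no overlap (log2 fold change 0.41, SE 0.14). It was one of 5 members, with Rpl22, Rpl7, Rps3 and Rps4l, whose acLDL libraries were all above every control library (3.44% of all genes tested). No member had all acLDL libraries below every control, where 2.2% of all genes tested did.

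Members with roles outside or at the surface of the large subunit were on both sides. Rpl5 and Rpl11, which carry the small ribosomal RNA of the large subunit and can restrain Mdm2, differed little: Rpl5 had means of 6695 ± 1305 and 5039 ± 952 (SD, n = 4; log2 fold change 0.41, SE 0.20) and Rpl11 9948 ± 1461 and 8722 ± 1150 (0.19, SE 0.17). Rpl23, at the face that meets the small subunit, stood at 13641, 24226, 23055 and 18262 with acLDL and 15363, 10428, 14042 and 11503 in controls (0.61, SE 0.22). Rpl39, a very short protein that lines the peptide tunnel, stood at 7413, 143, 13.9 and 1891 against 2409, 6115, 6271 and 5183 (-3.39, SE 1.61). Rpl41, the shortest ribosomal protein, stood at 5181, 3058, 442 and 2499 against 5199, 4992, 4267 and 2774 (-1.03, SE 0.67). Rpl39 and Rpl41 turned to 0.10 and 0.06 with the short-transcript covariate and to 0.28 and 0.14 with the short 3′ UTR covariate. Rpl22 was higher in every acLDL library, with 3945, 4100, 4158 and 3803 against 2632, 3717, 3767 and 2040 (0.44, SE 0.22).

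In the small subunit the lowest p-values among genes with a lower mean belonged to Rps14, Rps21, Rps9 and Rps4x. Rps14, whose loss in human marrow impairs red cell formation, stood at 2324, 219.5, 96.5 and 243 with acLDL and at 1225, 2327, 2659 and 1669 in controls. The fitted log2 difference was -2.48 (SE 0.84, limma adjusted p = 0.298). Rps9 (chr7:3703993-3706897, plus strand), beside the entry of the message, stood at 3294, 68.1, 5.38 and 797 against 1261, 3342, 3329 and 1924 (-3.43, SE 1.55). Rps21 (-2, SE 0.90) and Rps4x (-2.37, SE 1.08) were likewise low in acLDL libraries 2 to 4 and above every control in library 1. With the short 3′ UTR covariate Rps9 was at 0.12 and Rps4x at 0.06. Rps6 (chr4:86854660-86857412, minus strand), the target of the S6 kinases downstream of mTOR, stood at 1691, 10.6, 56.9 and 308 against 318, 1755, 2080 and 1134 (-2.84, SE 1.31). Rps6 was lowest in acLDL library 2, and Rps14, Rps21, Rps9 and Rps4x were lowest in acLDL library 3. Without acLDL library 1 the limma adjusted p was 0.0148 for Rps14, 0.0317 for Rps21, 0.0343 for Rps9, 0.0339 for Rps4x and 0.032 for Rps6. With array weights over all libraries it was 0.0308, 0.0543, 0.0639, 0.0542 and 0.0461 for the same genes.

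The small subunit genes with a higher mean were led by Rps25, Rps7, Rpsa and Rps20. Rps20 (chr4:3831334-3835665, minus strand) had the largest positive log2 fold change of any member, 1.09 (SE 0.37, limma adjusted p = 0.298), with 3248, 8610, 11493 and 6905 with acLDL and 4354, 2695, 3149 and 2906 in controls. Rps25, needed for initiation at some viral internal entry sites, stood at 11075, 18665, 18363 and 14773 against 11630, 9685, 9763 and 8479 (0.65, SE 0.20). Rps7 stood at 4422, 8946, 11447 and 7742 against 5200, 3591, 4393 and 3694 (0.88, SE 0.29). Rpsa, also known as the laminin receptor precursor, stood at 7642, 13420, 12458 and 9888 against 8356, 6420, 6642 and 6091 (0.63, SE 0.21). In these 4 genes acLDL library 1 was within the control range and the other acLDL libraries were above every control. Without library 1 their limma adjusted p was 0.0239, 0.0231, 0.0261 and 0.0224 for Rps25, Rps7, Rpsa and Rps20. With array weights over all libraries it was 0.0308, 0.0308, 0.032 and 0.0308. Rps3, beside the entry of the message, was higher in every acLDL library by a small margin (means 4775 ± 361 and 3887 ± 351, SD, n = 4; log2 fold change 0.30, SE 0.15). Rps19, mutated in Diamond-Blackfan anaemia, had overlapping groups with means of 4051 ± 514 and 3514 ± 442 (0.21, SE 0.17).

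**Figure D3:**
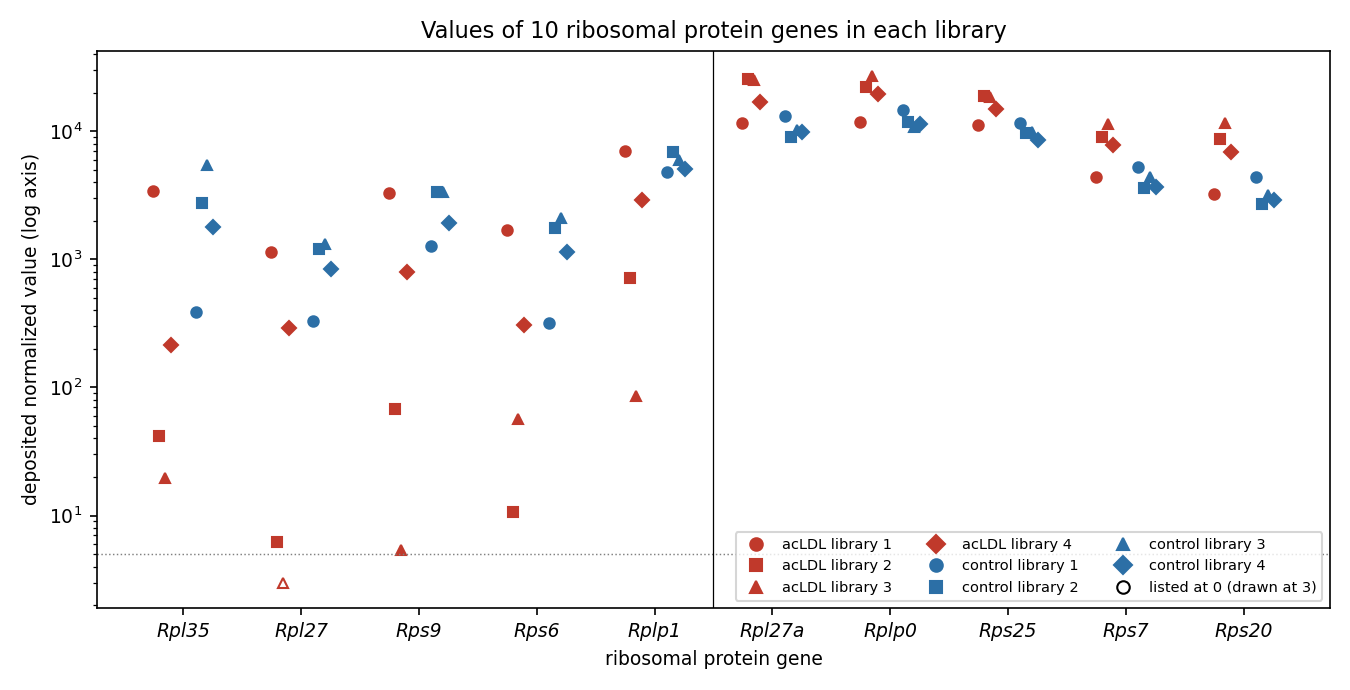
Deposited normalized value (log axis) of 10 named members in each library; red is acLDL, blue is control, symbols are libraries 1 to 4, the dotted line is at 5 and an open symbol stands for a value of 0. The 5 genes on the left are low in acLDL libraries 2 and 3 and high in library 1, and in the 5 on the right acLDL libraries 2 to 4 lie above every control.

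Genes named as paralogs of the core genes followed no single direction. Rpl22l1 stood at 297, 0, 0 and 19.9 with acLDL and at 5.75, 327, 359 and 216 in controls (log2 fold change -2.64, SE 1.54), where its partner Rpl22 was higher in every acLDL library. The other paralogs with lower means were Rpl36al (2202, 60.0, 7.43 and 508 against 854, 1677, 2491 and 1316) and Rps27l (1778, 77.5, 16.5 and 421 against 625, 1571, 1635 and 1007). Rps27l turned to 0.05 with the short-transcript covariate and Rpl22l1 to 0.41, and with the short 3′ UTR covariate Rpl36al was at 0.12, Rps27l at 0.19 and Rpl22l1 at 0.50. Rpl39l stayed at or below 28.1 in every library. Rpl7l1 (0.35, SE 0.29) had overlapping groups and turned to -0.13 and -0.14 with the covariates. Rps4l, annotated as a transcribed processed pseudogene, stood at 87.7, 104, 72.0 and 83.8 against 48.7, 68.6, 70.3 and 68.4 (0.42, SE 0.25).

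Some members have near-identical copies in the table, and since reads may have been shared between copies, which was not tested, their values are uncertain. Rpl10, which joins the large subunit last, was listed at 59.3 or less in every library, while Rpl10-ps3 stood at 3266, 162, 24.5 and 1062 with acLDL and 1409, 2583, 3070 and 2035 in controls. Rps2 stood at 516, 0, 0 and 0 against 5.22, 699, 751 and 432, and Rps2-ps10 at 3081, 24.4, 0 and 750 against 977, 2703, 2366 and 1963. The log2 fold changes of Rps2 and Rps2-ps10 were both -3.79. Of the 21 symbols with -ps left out, 11 passed the filter, 8 lower and 3 higher, with a median of -1.91.

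The lower and the higher members differed in the length of the annotated 3′ UTR (longest of the gene's coding transcripts, GENCODE mouse release 21, GRCm38), a property looked at after the values were known and so given without a test. Of 43 tested members with a 3′ UTR under 200 nt, 41 had a lower mean with acLDL and 2 a higher one, with a median log2 fold change of -2.37. Of 38 members with 200 nt or more, 9 were lower and 29 higher, with a median of 0.37. Just inside the limit stood Rps10 (180 nt, -0.51) and Rpl39 (184 nt, -3.39), and just outside it Rps27 (206 nt, -0.64), Rps28 (210 nt, -1.33) and Rpl4 (225 nt, -0.88). The other coding genes tested had the same tendency, with 82.6% of 638 lower when the 3′ UTR was under 200 nt (median -1.25) and 54.8% of 8269 lower otherwise (median -0.10).

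Transcript length moved with 3′ UTR length but separated the members less. With a 3′ UTR under 200 nt, 35 of 36 members with transcripts under 1000 nt and 6 of 7 with longer transcripts were lower (medians -2.23 and -2.90). With a longer 3′ UTR, 3 of 10 members with transcripts under 1000 nt and 6 of 28 with longer ones were lower (medians 0.23 and 0.40). Other coding genes did not part in that way. With a longer 3′ UTR, 80.9% of 225 with transcripts under 1000 nt were lower (median -1.35). With a 3′ UTR under 200 nt and longer transcripts, 77.9% of 420 were lower (median -0.97). Across the 81 members with a coding model, Spearman's rho of the log2 fold change was 0.63 with 3′ UTR length, 0.36 with transcript length, 0.06 with coding length and 0.10 with the number of exons. Across 8907 other genes these were 0.34, 0.27, 0.09 and 0.05. These are correlations across genes that share the same libraries, not across replicates. By the 3′ UTR of the principal transcript, 45 of 49 members under 200 nt and 5 of 32 others were lower.

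Exceptions existed on both sides. Rpl23a (51 nt) and Rpl7 (69 nt) had short 3′ UTRs and higher means, with log2 fold changes of 0.23 and 0.49. Rpl7, with 7081, 10003, 8422 and 6513 with acLDL against 6083, 5069, 5565 and 5746, had no overlap between the groups. Rps9 (878 nt, -3.43) and Rpl34 (415 nt, -2.06) had longer annotated 3′ UTRs and were the lowest of that set, followed by Rps28, Rpl41, Rpl4, Rps27, Rpl9, Rps24 and Rps15a, all between -1.33 and -0.29. By the principal transcript, Rps9 (72 nt), Rpl34 (47 nt), Rps27 (57 nt) and Rpl9 (98 nt) had short 3′ UTRs too, so that these 4 were exceptions only by the longest transcript. The same measure added exceptions: Rps13 (48 nt, 0.02) and Rps19 (42 nt, 0.21) then had short 3′ UTRs and higher means. With Rpl23a and Rpl7 they made 4 such members. Rpl37rt, Rps12l1, Rps23rg1 and Rps4l had no coding model under their symbol and could not be placed.

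**Figure D4:**
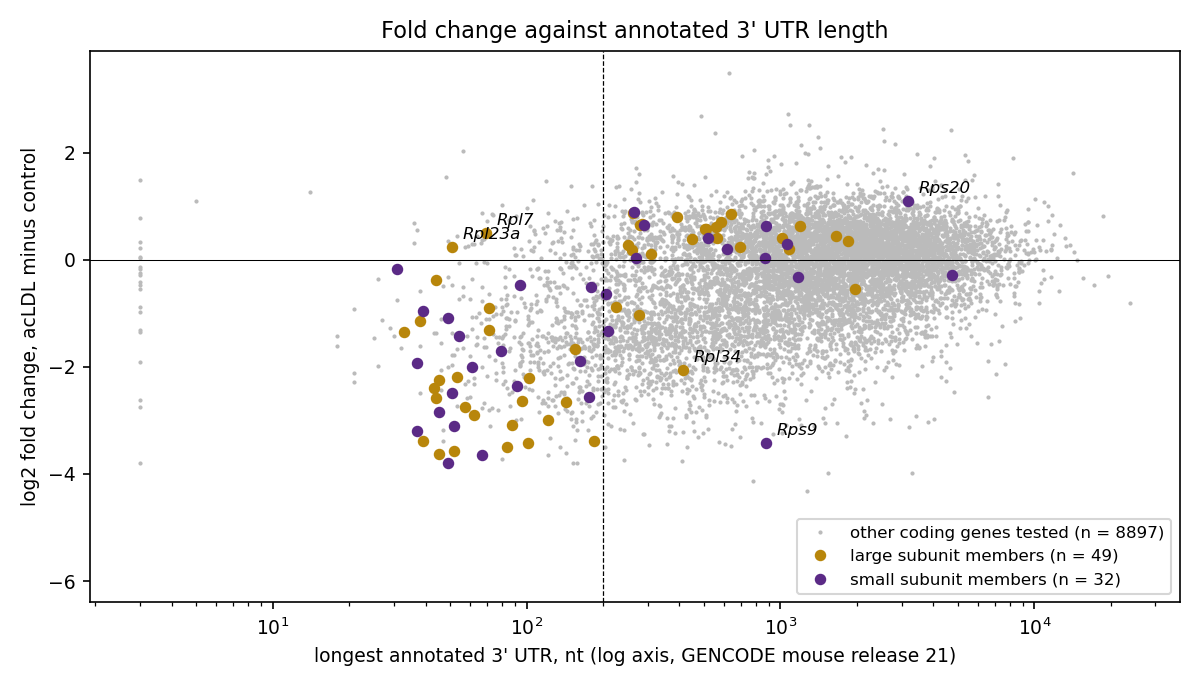
Log2 fold change (acLDL minus control) against the longest annotated 3′ UTR in nt (log axis) for 49 large subunit members, 32 small subunit members and 8897 other coding genes, with the dashed line at 200 nt; 10 other genes with no annotated 3′ UTR are not drawn. Left of the line 41 of 43 members lie below 0, and right of it 29 of 38 lie above 0.

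The acLDL libraries lay farther apart over the members with short 3′ UTRs than over the others. Their mean deviations were 1.63, -1.95, -3.65 and -0.30 in acLDL libraries 1 to 4 and 0.27, 1.41, 1.59 and 1 in control libraries 1 to 4. Of the 43, 36 were lowest of all libraries in acLDL library 3, 8 were listed at 0 there, and in acLDL library 1 all 43 were at or above the lowest control, 23 of them above every control. For the 38 others the deviations were 0.15, 0.15, -0.25 and 0.13 with acLDL and 0.07, -0.10, 0.06 and -0.22 in controls. The 638 other genes with short 3′ UTRs stood at 0.87, -1.12, -1.77 and -0.28 with acLDL and 0.13, 0.72, 0.87 and 0.59 in controls, the same order of the acLDL libraries as in the members. With their mean as a covariate in the fit, the median log2 fold change of the short 3′ UTR members was 0.14 and of all members 0.19. That mean itself differed by -1.15 between the groups (acLDL minus control), so the covariate also takes out part of the group difference. A fall of the medians toward 0 therefore gives no cause, and none was tested.

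Summed over all 86 members, the ribosomal protein genes took similar shares of the libraries, with overlapping groups. They held 12%, 11%, 9.14% and 10.4% of the total in acLDL libraries 1 to 4 and 9.99%, 9.85%, 10.8% and 9.19% in control libraries 1 to 4 (10.6 ± 1.17% and 9.95 ± 0.655%, SD, n = 4). The 44 members with short 3′ UTRs held 4.77%, 1.93%, 0.932% and 2.23% with acLDL and 2.95%, 3.88%, 4.19% and 3.43% in controls. The 38 with longer ones held 7.14%, 9%, 8.18% and 8.11% with acLDL, each above every control library (7%, 5.90%, 6.55% and 5.71%). By subunit the shares were 6.69 ± 0.36% and 5.74 ± 0.444% for the large subunit and 3.93 ± 0.981% and 4.21 ± 0.253% for the small subunit. The large subunit held 6.78%, 7.16%, 6.36% and 6.46% with acLDL, each above every control library (5.92%, 5.55%, 6.26% and 5.24%). For the small subunit the groups overlapped. Shares of a total are bound to each other, and no count of molecules can be read from them.

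The genes that work with the ribosomal proteins were followed through lists of related genes. Fau, made as a fusion of a ubiquitin-like protein with a ribosomal protein, was low in acLDL libraries 2 to 4, and acLDL library 1 was within the control range. It stood at 2095, 233, 217 and 678 with acLDL and 1515, 2248, 1735 and 1297 in controls (log2 fold change -1.67, SE 0.66). Rps27a, a member made as a fusion with ubiquitin, stood at 1696, 19.0, 0 and 305 against 396, 1124, 1171 and 841 (-3.20, SE 1.58), and turned to 0.28 and 0.46 with the short-transcript and the short 3′ UTR covariate. Several of the list medians given next turned with the scaling: under quantile normalization those of the elongation factors (0.15), the ribosome assembly factors (0.25), the mTOR and TOP control genes (0.06), the chaperones and quality control factors (0.03) and the mitochondrial ribosomal proteins (0.13) were all positive. None of the lists held a gene called at an adjusted p under 0.05 by limma on all 8 libraries. The list counts at an unadjusted p under 0.05 given next stand beside 8.93% lower and 7.42% higher among all genes tested.

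Elongation factors numbered 8, with 4 lower and 4 higher and 2 at an unadjusted p under 0.05 in each direction (median -0.08, and 0.03 with a pseudocount of 20). Eef1b2, an exchange factor for the factor that brings in aminoacyl-tRNA, had means of 3099 ± 522 and 1991 ± 198 (SD, n = 4) with no overlap (0.63, SE 0.18), and Eef1a1, that factor itself, was at 4137, 763, 1039 and 992 against 2901, 3894, 4429 and 2985 (-1.38, SE 0.48). Of 24 other genes with known TOP messages, 14 were lower and 10 higher (5 and 5 at an unadjusted p under 0.05, median -0.53). Ybx1, an RNA-binding protein, stood at 1528, 1012, 1001 and 1020 against 2691, 2450, 1615 and 2411, lower in every acLDL library (-1, SE 0.23), and Hnrnpa1, a splicing factor, was higher in every acLDL library (1928 ± 477 and 1109 ± 46.1, SD, n = 4; 0.76, SE 0.22).

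Of 40 ribosome assembly factors tested, 21 were lower and 19 higher (median -0.04). At an unadjusted p under 0.05 there were 0 lower and 4 higher (8.93% and 7.42% of all genes tested). Bysl, which acts in small subunit maturation, stood at 2085, 6062, 5073 and 3359 with acLDL against 2431, 1361, 1376 and 1771 in controls (1.18, SE 0.35), and Npm1, the nucleolar chaperone, at 3799, 6293, 8451 and 8299 against 3241, 2807, 4021 and 3594 (0.92, SE 0.27). In both, acLDL libraries 2 to 4 were above every control, as in Rps20 and Rpl27a. RNA polymerase I and its factors were 7 lower and 5 higher of 12 (2 and 1 at an unadjusted p under 0.05, median -0.38), with Ttf1, its termination factor, at -1.49 (SE 0.53) and Rrn3, its initiation factor, at -1.93 (SE 0.77). The 18S-related entry Rn18s-rs5 stood at 19306 to 34320 with acLDL and at 60775 to 203753 in controls, with no overlap (-2, SE 0.35, limma adjusted p = 0.298).

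Of 15 genes of mTOR signalling and TOP control, 8 were lower and 7 higher (0 and 1 at an unadjusted p under 0.05, median -0.14). Eif4e, which binds the cap, was at 0.70 (SE 0.26), and Larp1, which binds the TOP cap, at -0.93 (SE 0.41). Ribosome-associated chaperones and quality control factors were 10 lower and 7 higher of 17 (1 and 0, median -0.54, and -0.02 without acLDL library 2). Zfp598, which senses collided ribosomes, was lower in every acLDL library (42.9 ± 10 and 77.7 ± 8.76, SD, n = 4; -0.80, SE 0.27), and Ascc2, which acts on such ribosomes, was at 0.53 (SE 0.24). The proteins of the mitochondrial ribosome, built apart from the cytosolic one, were 38 lower and 36 higher of 74 tested, with a median of -0.01. Of these, 5 lower and 14 higher had an unadjusted p under 0.05 (8.93% and 7.42% of all genes tested). Genes of the mitochondrial genome were 10 lower and 2 higher of 12 (0 and 0, median -0.55), with mt-Co3 at -0.93 (SE 0.44) and mt-Nd2 at -0.47 (SE 0.23), and mt-Co3 was at 0 with the short 3′ UTR covariate.

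**Figure D5:**
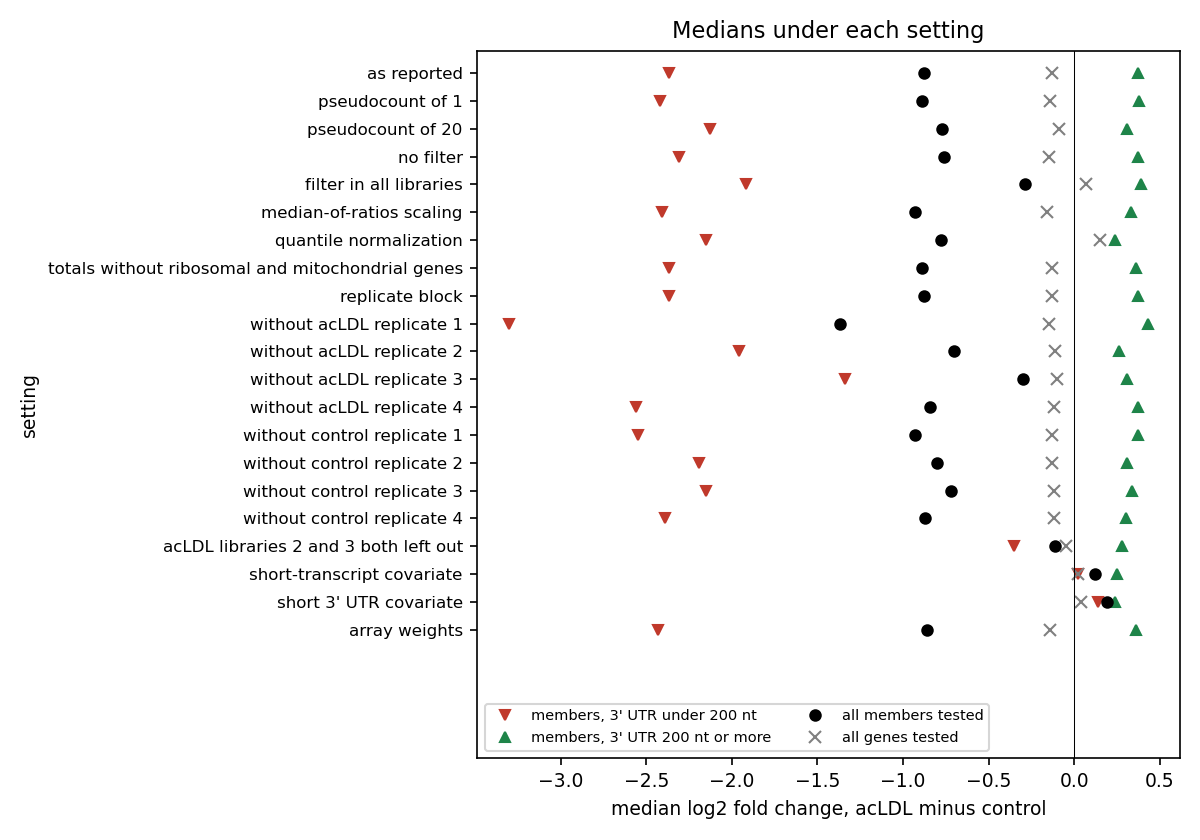
Median log2 fold change (horizontal axis, acLDL minus control) of all tested members, of members with a short or a longer 3′ UTR and of all genes tested, under each processing choice (vertical axis). The median of short 3′ UTR members runs from -3.30 without acLDL library 1 to -0.35 without acLDL libraries 2 and 3, and turns to 0.02 and 0.14 with the 2 covariates, while that of the others stays between 0.24 and 0.43.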

How the data were processed

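RNA of 8 libraries (4 acLDL, 4 control) was prepared with a 3′ mRNA kit, per the labels' protocols. Per the submitters' processing notes, bcl2fastq 2.20, kallisto and mm10 were used. The roles of these tools, the annotation, filters and scaling: not given in the sources used here. Values in the deposited table are a normalized signal per gene, not whole numbers, so no count model was used. Totals were 3917426 to 4385051, and the original depth is unknown.

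Values were taken as log2(value + 5), and genes with at least 10 in at least 4 libraries (10091) were fitted with limma 3.58.1 in R 4.3.3 (trend and robust options, two-sided, Benjamini-Hochberg over all genes tested, threshold 0.05). A fold change on this scale understates that of low genes. Tables and figures were made with Python 3.11.15, pandas 2.3.3 and matplotlib 3.10.9, and the fit was tested on simulated data. There it called 4.8% of log2 changes of 1 and 32.6% of log2 changes of 2. The absence of calls on all 8 libraries therefore does not show an absence of such changes. GENCODE mouse release 21 gave lengths (86.2% of listed genes had a coding length). Named members were, per subunit, the 4 lower and the 4 higher members with the smallest p, a set fixed for their roles, and 2 genes per related list, of which 1 is not reported here. Other members named beside the 3′ UTR split, the pseudogene pairs and the sequences were chosen after their values were seen. The members and lists were chosen with earlier results of these data known. Alternatives changed the pseudocount, filter, scaling, libraries, weights, covariates and a replicate block.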

Additional observations from a re-analysis of the deposited data

Results flagged for a closer look

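Of 84 groups of 4 libraries checked over the named genes and group means, 6 had a library whose gap to the nearest other exceeded Dixon's 95% limit, and chance alone marks about 1 in 20 groups. In 3 of them acLDL library 1 stood above the other acLDL libraries: Rpl35 at 3408, Rps14 at 2324 and Rpl22l1 at 297. In Rps3 control library 4 was the lowest control, at 3367, and in Rps4l control library 1 was the lowest control, at 48.7. Over the members with a 3′ UTR of 200 nt or more, acLDL library 3 had the lowest mean deviation of the acLDL libraries, -0.25.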

How the results depend on the processing

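With one library left out at a time, the number of ribosomal protein genes called ranged from 0 to 49 (49 without acLDL library 1) and that at an unadjusted p under 0.05 from 7 to 63. Array weights, which estimate each library's reliability, called 28 members and put 62 at an unadjusted p under 0.05 (40.7% of all genes tested). They gave acLDL library 1 the lowest weight (0.34). Without acLDL libraries 2 and 3 there were 0 at an unadjusted p under 0.05, and the short 3′ UTR members' median was -0.35. The short-transcript covariate left 3 (4.96% of all genes) and the short 3′ UTR covariate, chosen after seeing the data, 1 (4.68%). Both covariates differed between the groups themselves, so they also take out part of the group difference. Under these covariates the median log2 fold change of the ribosomal protein genes reversed to 0.12 and 0.19, that of the large subunit genes to 0.14 and 0.18, that of the small subunit genes to 0.09 and 0.19, that of members with a longest 3′ UTR under 200 nt to 0.02 and 0.14, and the large minus small difference to -0.01 and -0.02. Single genes also reversed: with the first Rps27a 0.28, Rpl39 0.10, Rpl41 0.06, Rpl7l1 -0.13, Rpl22l1 0.41 and Rps27l 0.05, and with the second Rpl27 0.01, Rps9 0.12, Rps4x 0.06, Rplp1 0.09, Rps27a 0.46, Rpl39 0.28, Rpl41 0.14, Rpl7l1 -0.14, Rpl22l1 0.50, Rpl36al 0.12, Rps27l 0.19 and mt-Co3 0. A filter asking for 10 in all libraries, which drops genes at 0 in any, reversed the large subunit median to 0.19. The cause of the other changes was not tested. Both pseudocounts, no filter, median-of-ratios scaling, quantile normalization and totals without ribosomal and mitochondrial genes called no member. None of these reversed a median of the members or the direction of a named gene. The counts did move. Lower members numbered 51 in the main fit, 54 under median-of-ratios scaling and 55 under quantile normalization. Lower members at an unadjusted p under 0.05 numbered 5 in the main fit, 1 with a pseudocount of 1 and 12 with one of 20. Medians of 5 related lists turned positive under quantile normalization. TMM scaling was not run because the values are not counts.

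Same-numbered acLDL and control libraries did not deviate together (correlations -0.55, -0.21, -0.28 and 0.03 for numbers 1 to 4). The main fit had been set to use the group only and did not pair them. Whether same-numbered libraries shared an animal or culture cannot be told from these values. A fit with the replicate block called 0 members and put 5 at an unadjusted p under 0.05 (7.23% of all genes). No acLDL library correlated best with the control library of its own number.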
